A study of Sus scrofa with 3 samples.

Results

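Acyl-CoA enzymes and peroxisome genes were described in 3 porcine liver libraries. They comprise the acyl-CoA synthetases, thioesterases, dehydrogenases, peroxisomal oxidases, acyl-CoA binding proteins, the peroxisomal thiolase ACAA1 and the peroxins. Members were taken by gene symbol, as every ID in the count tables whose pig symbol begins with ACAD, ACOT, ACOX, ACSL, ACSM, ACSS, ACSF, ACBD or ACAA1, or with PEX and a digit, and ACADVL was left out by the same rule. This gave 45 of 25322 gene IDs. Another 8 symbols of the symbol table match the rule but have IDs that are not in the count tables (ACAD8, ACBD7, ACOT11, ACOT12, ACOT13, ACOXL and ACSL5 among them), and they are not analysed here. Each library is the liver of a male pig at postnatal day 90. The groups are the Enshi black pig, the Large White pig and the Chinese wild boar, with 1 library each, and no treatment or genotype is given. The labels name 3 pigs and no pooling, so breed, animal and library cannot be told apart here.

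Fatty acids enter metabolism as thioesters of coenzyme A. Synthetases make these esters at the cost of ATP, thioesterases split them, and binding proteins carry them through the cell. Mitochondrial beta-oxidation starts with the acyl-CoA dehydrogenases, which pass electrons to the respiratory chain through a flavoprotein. Peroxisomes, which shorten very long, branched and bile acid precursor chains, start with acyl-CoA oxidases, which pass electrons to oxygen and release hydrogen peroxide, and end each cycle with a thiolase. Peroxins build the organelle: some insert its membrane proteins, some import its enzymes from the cytosol, and some drive its division. Hepatocytes are rich in both organelles.

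Levels are given in CPM, a gene's read count scaled to a common library total with the TMM composition factors of edgeR, and lists of 3 values run in the order Enshi black, Large White, Chinese wild boar. The tables held 19982627 to 20654571 gene counts per library, and 1 count was worth 0.0463 to 0.0512 CPM. The 6 hepatocyte markers in the tables, of which 5 were expressed, summed to 107414, 60914 and 91678 CPM, with Large White lowest. They did not run together. Albumin (ALB) had 66508, 25310 and 53648 CPM, TF 23596, 21018 and 18137, and AHSG 13744, 9099 and 15141. TTR (2543, 4107 and 3497) and CPS1 (1024, 1378 and 1254) were highest in Large White. APOA1 had 2, 0 and 2 counts. By comparison, 2 cholangiocyte markers summed to 5.31 to 5.84 CPM. The kidney marker UMOD had 2 counts in the Chinese wild boar library and none in the others. Markers of other liver cells differed between libraries too. The 5 stellate cell and fibroblast markers in the tables summed to 994 CPM in the Enshi black liver, 290 in Large White and 502 in the Chinese wild boar, 4 Kupffer cell markers to 639, 779 and 672, 2 endothelial markers to 297, 595 and 276, 2 T cell markers to 27.5, 30.3 and 5.21, and the adipocyte marker PLIN1 had 4.54, 2.05 and 5.46 CPM. The endothelial markers did not run together: STAB1 had 186, 499 and 168 CPM, and PECAM1 had 111, 95.6 and 108. In whole tissue, fewer cells of a type and less RNA per cell cannot be told apart.

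Of the 45 members, 43 were expressed, with at least 1 CPM in each of the 3 libraries. The other two were ACSL6, a synthetase, with 0 counts in Enshi black and 1 in each other library, and PEX5L, a peroxin-like gene, with 1 count in Large White only. These levels lie below 3 counts per library, and no fold is given for them. The 43 genes summed to 5282 CPM in the Enshi black liver, 6005 in Large White and 7504 in the Chinese wild boar, or 0.552%, 0.587% and 0.734% of each library's gene counts.

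**Figure D1:**
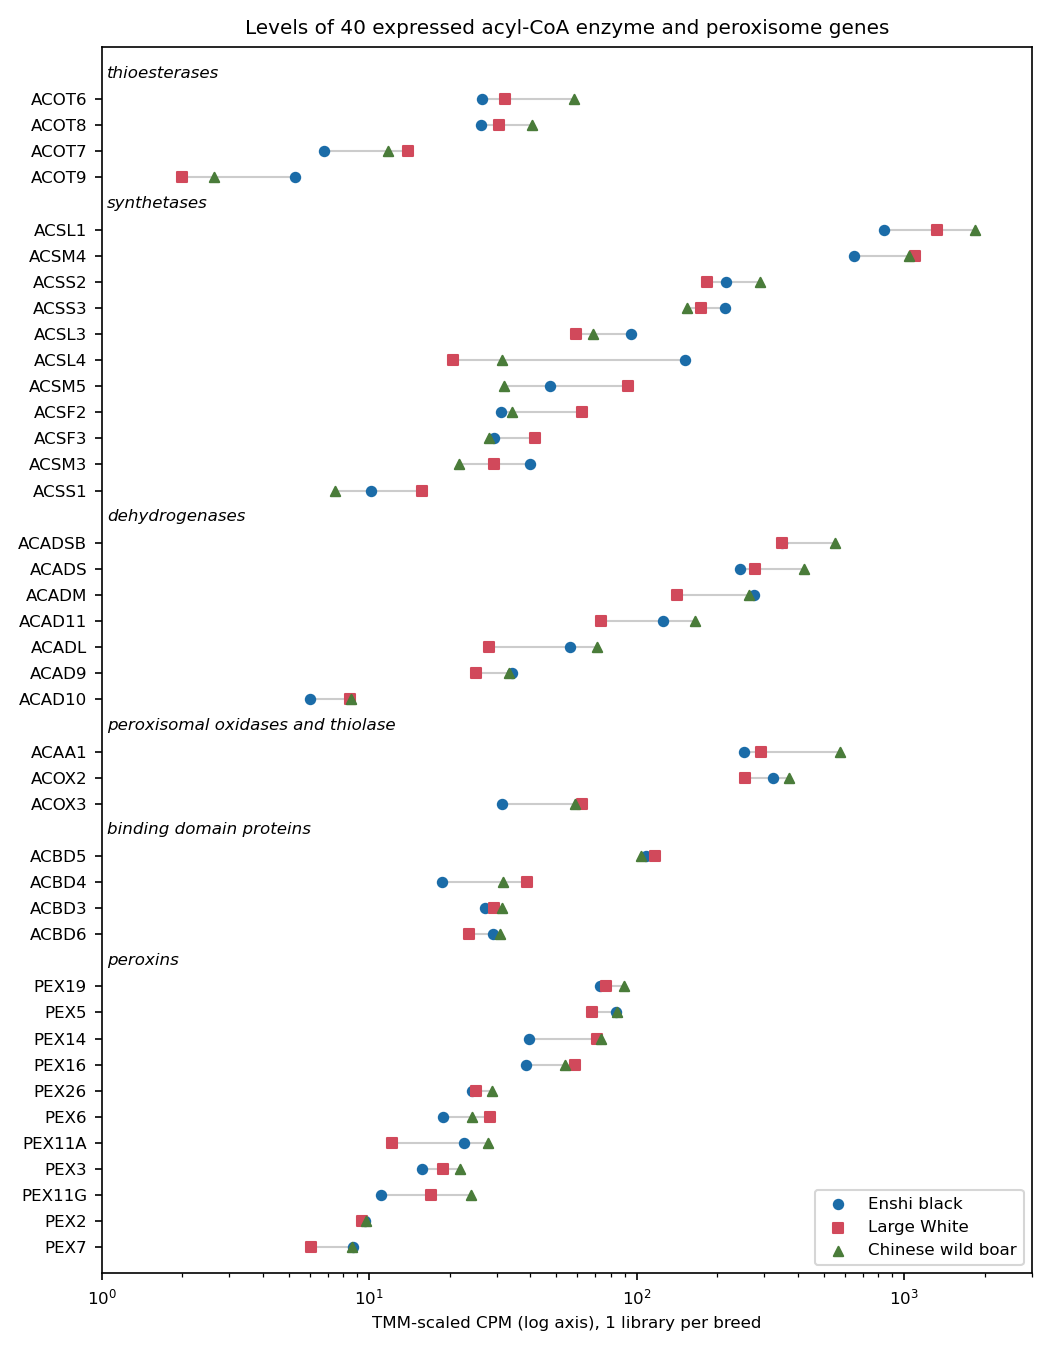
TMM-scaled CPM (log axis) of 40 of the 43 expressed members in the 3 libraries, grouped by class and ordered by mean level; each point is 1 library and the grey line joins the lowest and the highest. ACSL4 has the widest line, from 20.5 CPM in Large White to 152 in Enshi black, and ACBD5 and PEX2 have short ones.

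Folds between libraries are ratios of scaled counts. The range in parentheses after a fold is its 95% interval, an exact (Clopper-Pearson) binomial interval on the pair of counts that covers counting error only. Each breed being 1 library, no test across animals was possible. A gene passed when even the end of its interval closest to no difference was at least 2-fold. By this rule 6 members passed in at least 1 comparison, and 1 of them, ACSL4, passed against both other libraries.

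Against Large White, Enshi black had 1 member that passed higher (ACSL4) and 0 that passed lower, where 4.69% of all 13228 expressed genes passed higher and 8.39% lower. Chinese wild boar against Large White gave 2 members higher (ACAD11 and ACADL) and 1 lower (ACSM5), beside 2.96% and 3.74% of all genes. Enshi black against Chinese wild boar gave 1 higher (ACSL4) and 2 lower (ACSL1 and ACAA1), beside 4.03% and 7.10%. With 0 to 2 of 43 genes per direction, nothing is read from these counts about the members as a set. The median log2 fold over members was -0.11, 0.21 and -0.24 in the 3 comparisons in that order, against 0.01, 0.00 and 0.01 over all expressed genes. With total counts, which moved the median of all genes to 0.10 in both comparisons of Enshi black, the medians over members in these comparisons were -0.01 against Large White and -0.14 against Chinese wild boar. With TMM scaling, the mean over members in Enshi black against Large White was -0.01. The comparisons share libraries and are not independent of each other.

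Most members thus differed by modest amounts. The ratio of the highest to the lowest library, with 0.1 CPM added to each, had a median of 1.58 over members and 1.68 over all expressed genes, and it was 2 or more for 14 of 43 members (32.6%) and for 33.7% of all genes. Chinese wild boar was the highest library for 22 of 43 members (51.2%), against 29.5% of all expressed genes, and the lowest for 7 (16.3%, against 29.8%). Enshi black was the lowest library for 21 members (48.8%, against 36.3%). Large White was the highest for 12 and the lowest for 15. These ranks were taken with TMM scaling only, and near ties such as ACADSB (348 and 350 CPM in Enshi black and Large White) count in full. With total counts, members above 0 in Enshi black against Large White rose from 18 to 21 of 43. In Enshi black against Chinese wild boar they rose from 13 to 18.

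**Figure D2:**
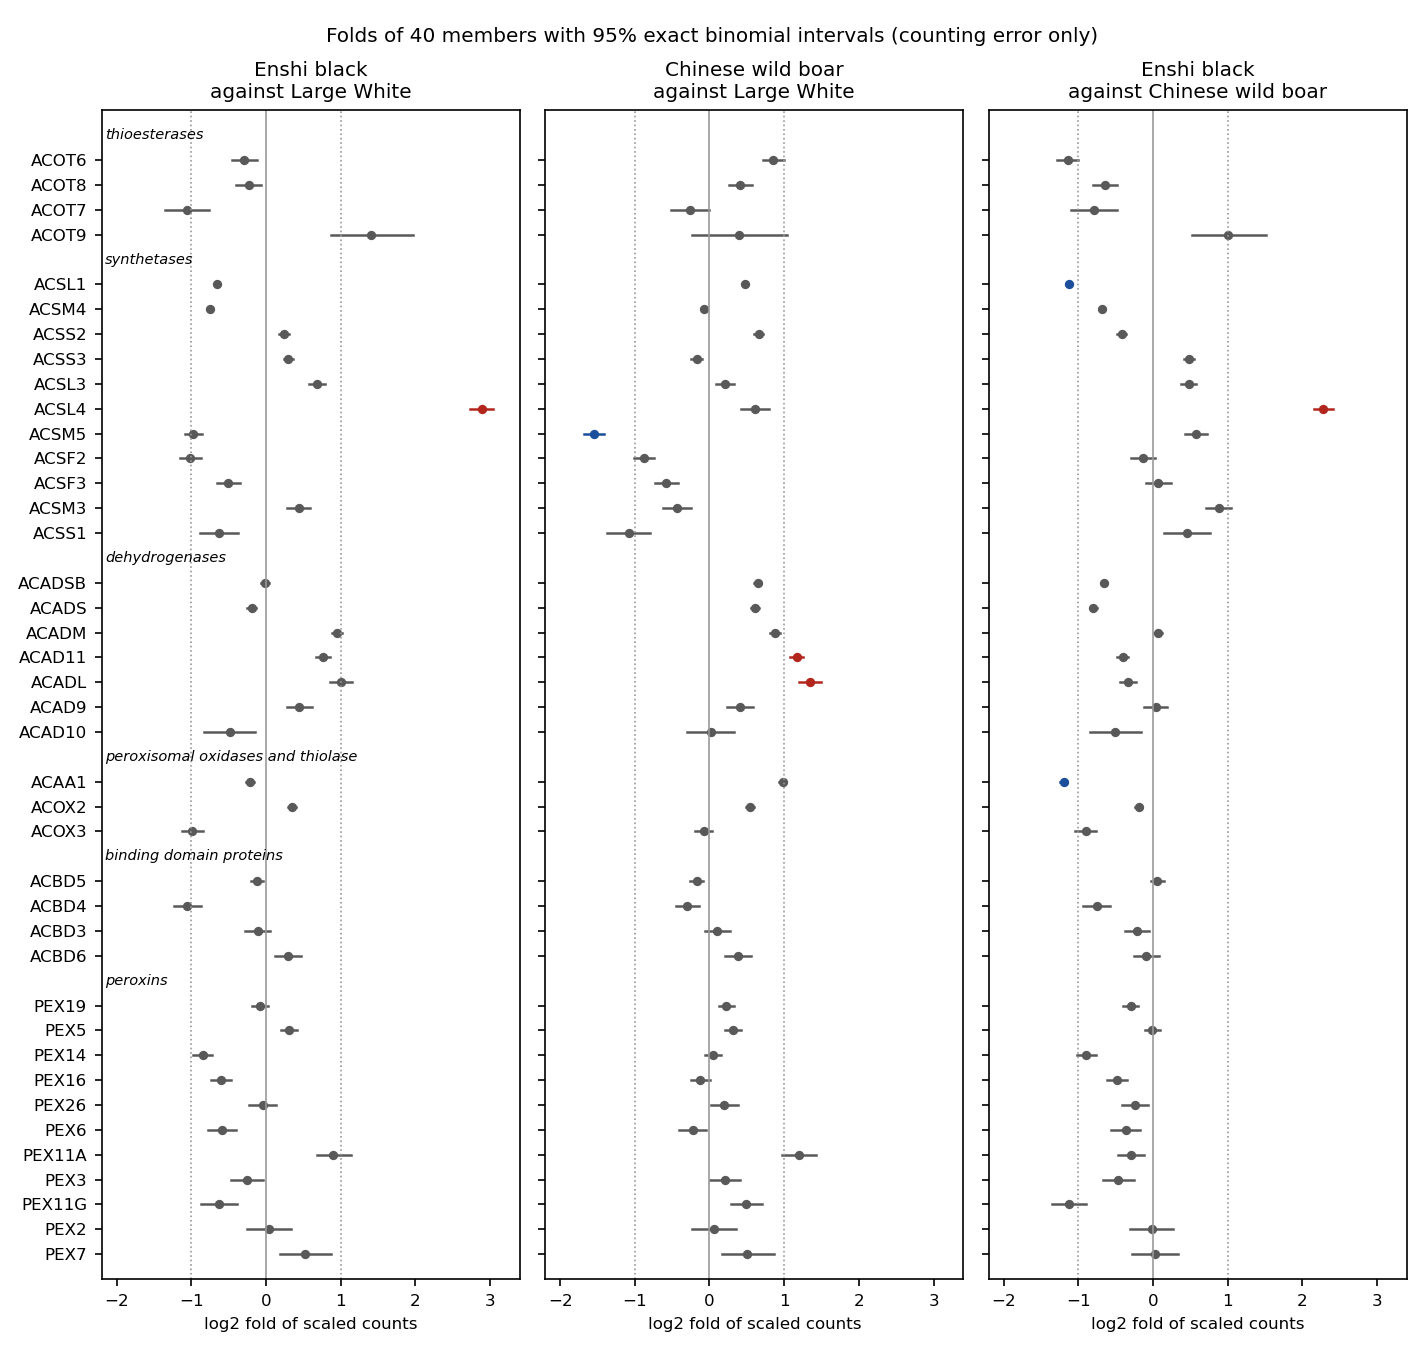
Log2 folds of scaled counts for 40 of the 43 expressed members in the 3 comparisons, with 95% exact binomial intervals that cover counting error only; dotted lines mark 2-fold, red marks genes that passed higher and blue genes that passed lower. Only ACSL4 lies beyond 2 log2 units, in both comparisons of Enshi black. The 7 dehydrogenases all lie above 0 in Chinese wild boar against Large White, though the interval of ACAD10 spans 0.

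Among the synthetases, the long-chain family differed most. ACSL4, the long-chain synthetase with a preference for arachidonic acid and other polyunsaturated chains, had 152 CPM in the Enshi black liver (3280 counts), 20.5 in Large White (401 counts) and 31.3 in the Chinese wild boar (620 counts). Enshi black stood above both others, which lay close together. It was 7.41-fold higher than in Large White (6.67 to 8.24) and 4.85-fold higher than in Chinese wild boar (4.45 to 5.29), while Chinese wild boar had 1.53 times the Large White level (1.34 to 1.74). Of the 4 expressed stellate cell and fibroblast markers, 3 also passed higher in Enshi black against Large White and 2 against Chinese wild boar. The fibrillar collagen COL3A1 had 837, 232 and 383 CPM, its companion COL1A2 114, 32.2 and 88.7, and the matrix proteoglycan decorin (DCN) 26.2, 7.37 and 10.8, while the receptor PDGFRB had 15.9, 18.0 and 18.6 and the proteoglycan LUM 13, 0 and 7 counts. Of the 4 Kupffer cell markers, C1QA was nearly level at 548, 522 and 517 CPM, CD68 had 53.9, 61.2 and 70.7, and CSF1R (15.6, 111 and 55.7) and MARCO (21.4, 85.1 and 28.9) were lowest in Enshi black. The part of these cells in the ACSL4 level was not tested.

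ACSL1, the main long-chain synthetase of liver, ran in another order, with 842 CPM in the Enshi black liver, 1323 in Large White and 1838 in the Chinese wild boar. Enshi black was 2.18-fold lower than Chinese wild boar (2.15 to 2.22), which passed, and 1.57-fold lower than Large White (1.54 to 1.60), which did not. ACSL3, which sits on the endoplasmic reticulum and on nascent lipid droplets, had 95.1, 59.3 and 68.4 CPM and passed in no comparison. The make-up of the family can be read within each library, where scaling between libraries plays no part. ACSL4 held 14.0% of the counts of the ACSL genes in the Enshi black liver (13.5 to 14.4), 1.46% in Large White (1.32 to 1.61) and 1.62% in the Chinese wild boar (1.49 to 1.75), with exact Clopper-Pearson intervals. ACSL1 held 77.3%, 94.3% and 94.8%, and ACSL3 8.74%, 4.23% and 3.53%. For each ACSL4 count there were 5.54 ACSL1 counts in the Enshi black liver, 64.4 in Large White and 58.7 in the Chinese wild boar. These are shares of counts, not of molecules, since they are not corrected for transcript length.

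**Figure D3:**
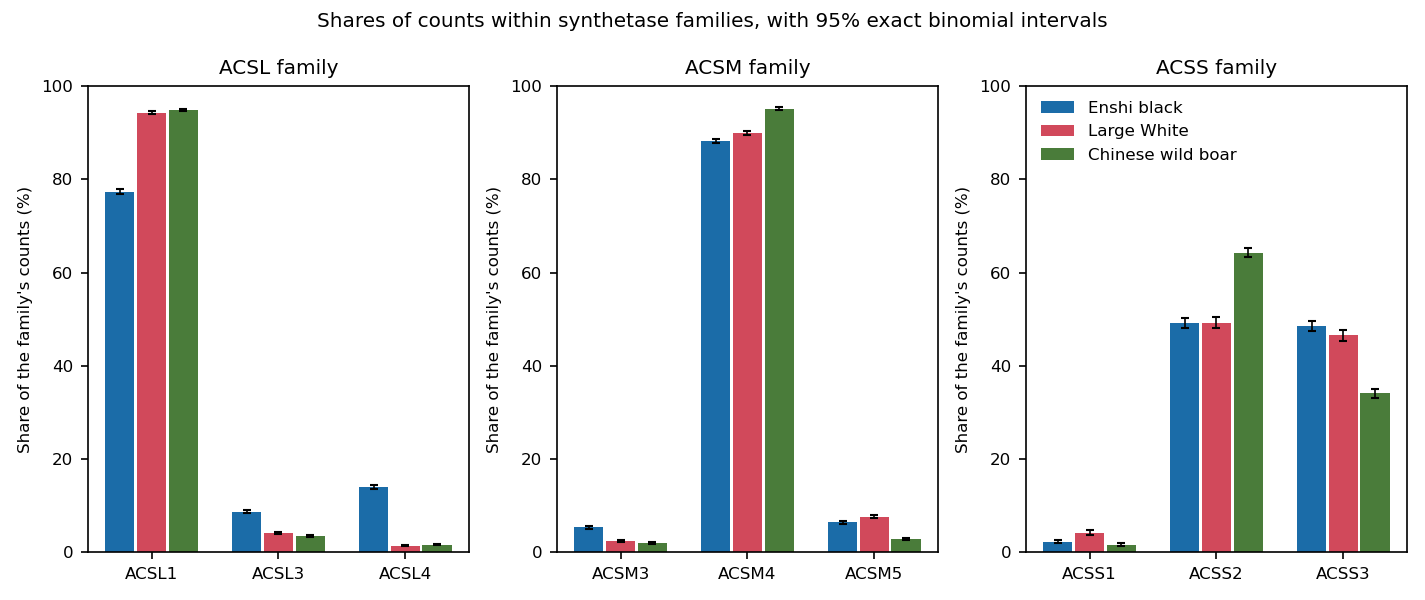
Share of each synthetase family's counts (%) held by its genes in each library, with 95% exact binomial intervals; ACSL6, at 0 or 1 count, is left out. ACSL4 takes 14.0% of ACSL counts in Enshi black and under 2% in both other libraries, and ACSS2 takes 64.3% of ACSS counts in Chinese wild boar.

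The medium-chain synthetases of the ACSM family act in mitochondria on medium-chain fatty acids and on aromatic acids. ACSM5 had 47.4 CPM in the Enshi black liver, 92.9 in Large White and 31.9 in the Chinese wild boar, so Large White was the highest. It passed as 2.91-fold lower in Chinese wild boar than in Large White (2.66 to 3.20), and the Enshi black level was 1.96-fold below Large White (1.82 to 2.12), which did not pass. ACSM4 was by far the most counted of the family, with 651, 1097 and 1045 CPM, and Enshi black was 1.69-fold below Large White (1.65 to 1.72). ACSM3 ran the other way, with 39.8, 29.3 and 21.6 CPM. As shares of the family's counts, ACSM3 held 5.39%, 2.40% and 1.97% and ACSM5 6.42%, 7.62% and 2.90%. ACSM genes are close copies that lie next to each other, and reads between such copies may have been dropped or assigned to the wrong one.

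Acetate and propionate are activated by the ACSS enzymes. ACSS2, the cytosolic and nuclear acetyl-CoA synthetase, had 216, 183 and 290 CPM in Enshi black, Large White and Chinese wild boar, and ACSS3, a mitochondrial enzyme for propionate, had 213, 173 and 153. Both held nearly equal shares of the family's counts in Enshi black (49.2% and 48.5%) and in Large White (49.2% and 46.5%), while in Chinese wild boar ACSS2 held 64.3% (63.3 to 65.3) and ACSS3 34.1% (33.1 to 35.1). ACSS1, the mitochondrial acetate enzyme, was low, with 220, 307 and 147 counts, and Chinese wild boar was 2.11-fold below Large White (1.73 to 2.59), which did not pass. ACSF2, annotated as a medium-chain synthetase, had 31.1, 62.7 and 34.1 CPM, with Large White above both others. ACSF3, the mitochondrial malonyl-CoA synthetase, had 29.4, 41.7 and 27.9 CPM, also with Large White the highest. Over the 11 expressed of 12 synthetases, the median log2 fold was -0.50 in Enshi black against Large White, where the mean was 0.00. It was -0.17 in Chinese wild boar against Large White, where the mean was -0.25. In Enshi black against Chinese wild boar it was 0.45, while the mean was 0.26 and the median with all IDs, the unexpressed one included, was also 0.26. Single genes of the class thus lay on both sides in each comparison: 5, 4 and 7 of 11 were above 0.

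The 4 thioesterases were all expressed and none passed. ACOT6, which belongs to a cluster of closely related thioesterase genes, had 26.4 CPM in the Enshi black liver, 32.2 in Large White and 58.3 in the Chinese wild boar. Enshi black was 2.21-fold below Chinese wild boar, and with an interval of 2.0 to 2.45 it stayed just short of passing, while it passed with DESeq2 size factors in place of TMM. ACOT8, a peroxisomal thioesterase that also acts on bile acid esters, had the same order at 26.1, 30.6 and 40.7 CPM. ACOT7, a cytosolic long-chain thioesterase, had 6.77, 14.0 and 11.7 CPM. ACOT9, a mitochondrial thioesterase, was the least counted, with 114, 39 and 52 counts (5.28, 2.0 and 2.63 CPM), and Enshi black was 2.65-fold above Large White, with a wide interval of 1.83 to 3.91. Median log2 folds of the class were -0.26, 0.40 and -0.71 in the same order of comparisons, and the means were -0.05, 0.35 and -0.40. With total counts the first median was -0.16.

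The acyl-CoA binding domain genes were among the steadier classes. ACBD5, a peroxisomal membrane protein that ties peroxisomes to the endoplasmic reticulum, had 108 CPM in the Enshi black liver, 117 in Large White and 104 in the Chinese wild boar. ACBD3, a Golgi protein, had 27.1, 29.2 and 31.4, and ACBD6 29.1, 23.7 and 30.9. ACBD4, another peroxisomal tether, stood apart from them with 18.8, 38.9 and 31.7 CPM: Enshi black was 2.07-fold below Large White (1.83 to 2.34), short of passing.

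Every one of the 7 acyl-CoA dehydrogenases lay above 0 on the log2 scale in Chinese wild boar against Large White, under TMM, DESeq2 size factors and total counts alike, but only 2 passed. ACAD10 did so by only 1.01-fold, with an interval that included 1 (0.81 to 1.26). The class median was 0.65, beside 0.00 over all expressed genes, of which 50.1% lay above 0. ACADL, the long-chain dehydrogenase, had 56.4 CPM in the Enshi black liver, 28.0 in Large White and 71.2 in the Chinese wild boar, and was 2.54-fold higher in Chinese wild boar than in Large White (2.30 to 2.81). ACAD11, which acts on longer acyl chains and takes part in the breakdown of hydroxy fatty acids, had 125, 73.7 and 165 CPM, and was 2.24-fold higher (2.11 to 2.39). In both genes Large White was the lowest library, and Enshi black lay nearer to Chinese wild boar.

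ACADM, the medium-chain dehydrogenase, shared this order of a low Large White, with 274, 142 and 262 CPM, and did not pass: Enshi black was 1.93-fold (1.85 to 2.02) and Chinese wild boar 1.84-fold (1.76 to 1.93) above it. ACAD9, a dehydrogenase better known as an assembly factor of respiratory complex I, had 34.1, 25.1 and 33.4 CPM. The short-chain enzymes had another pattern, in which Chinese wild boar alone was high. ACADSB, which acts on short branched chains from isoleucine, had 348, 350 and 548 CPM, and the short-chain dehydrogenase ACADS 242, 277 and 422. In Chinese wild boar they were 1.57-fold (1.52 to 1.61) and 1.52-fold (1.47 to 1.58) above Large White, and neither passed. ACAD10 was low, at 6.02, 8.44 and 8.54 CPM. In Enshi black against Chinese wild boar the class median was -0.40 and 2 of 7 lay above 0, and in Enshi black against Large White it was 0.44 with 4 of 7 above 0.

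In the peroxisomal beta-oxidation core, ACAA1, the thiolase that ends each cycle, had 251, 291 and 573 CPM, with Chinese wild boar above both others. Enshi black was 2.29-fold below Chinese wild boar (2.21 to 2.36), which passed, and Chinese wild boar was 1.97-fold above Large White (1.91 to 2.04), which did not pass because its near bound of 1.91 lay under 2. ACOX2, the oxidase of branched chains and bile acid intermediates, had 323, 255 and 370 CPM. ACOX3, another branched-chain oxidase, had 31.5, 62.2 and 58.8, so Enshi black was the low library, 1.98-fold below Large White (1.80 to 2.17). All 4 genes of the class lay below 0 in Enshi black against Chinese wild boar, with a median of -0.55.

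Of the 14 peroxins, 13 were expressed and none passed in any comparison. Their median log2 folds were -0.04, 0.21 and -0.29 in Enshi black against Large White, Chinese wild boar against Large White and Enshi black against Chinese wild boar, and with total counts the first became 0.05. Chinese wild boar was the highest library for 9 of 13, mostly by small margins, and the class summed to 368 CPM in the Enshi black liver, 409 in Large White and 464 in the Chinese wild boar. Of the matrix protein receptors, PEX5, which carries enzymes with a C-terminal signal, had 83.9, 67.8 and 84.4 CPM, and PEX7, which carries those with an N-terminal signal, 8.71, 6.04 and 8.59. PEX14, the docking protein of the import pore, was lower in Enshi black, with 39.5 CPM against 71.0 and 73.4, or 1.80-fold (1.65 to 1.96) and 1.86-fold (1.70 to 2.02).

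The ligase subunit PEX2, which helps to mark the receptors for recycling, had 9.64, 9.37 and 9.75 CPM, and the intervals of all its folds included 1. The ATPase PEX6, which helps to pull the receptors back out of the membrane, had 18.9, 28.3 and 24.3 CPM, and PEX26, its membrane anchor, had between 24.3 and 28.7. Of the membrane insertion factors, PEX19, the carrier in the cytosol, had 72.9, 76.9 and 89.9 CPM, PEX3, its docking partner, 15.8, 18.9 and 21.8, and PEX16 38.6, 58.6 and 53.9. The widest spreads lay with the division factors of the PEX11 family. PEX11A had 22.7 CPM in the Enshi black liver, 12.1 in Large White and 27.8 in the Chinese wild boar, and Chinese wild boar was 2.30-fold above Large White (1.97 to 2.68), just short of passing. PEX11G had 11.0, 17.0 and 24.0, and Enshi black was 2.18-fold below Chinese wild boar (1.86 to 2.55), also short of passing.

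PEX11A, like ACADL, ACAD11 and ACADM, had Large White lowest. So did 15 of the 43 members in all (34.9%, against 33.9% of all expressed genes). PEX11G, ACOT6 and ACOT8, like ACAA1 and ACSL1, were lowest in Enshi black and highest in Chinese wild boar. Other members, ACADS, ACADSB, PEX14 and PEX19 among them, had that order too by their levels. The interval of Enshi black against Large White included 1 in ACADSB (0.96 to 1.03) and PEX19 (0.88 to 1.02). In PEX14 that of Chinese wild boar against Large White did (0.96 to 1.11). The share of all expressed genes with that order was not counted. These orders rest on 3 libraries and carry no test.

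Genes that work beside the members were described from 4 lists, with levels in the plot of partner genes. List genes with no matching ID in the tables were not analysed here. Of 14 peroxisomal beta-oxidation partners, 10 had an ID in the tables and 9 of those were expressed. In Chinese wild boar against Large White 3 passed higher and 0 lower, in Enshi black against Large White 0 and 1, and in Enshi black against Chinese wild boar 0 and 3, with median log2 folds of 0.82, -0.50 and -0.68. Of all expressed genes, 2.96% passed higher and 3.74% lower in the first of these comparisons. In the second 4.69% and 8.39% did, and in the third 4.03% and 7.10%. Median log2 folds over all expressed genes were 0.00, 0.01 and 0.01. The same values stand beside the other lists below. The lists are short, and nothing is read from these counts about any list as a set. CROT, which makes carnitine esters of chains shortened in peroxisomes, had 91.3 CPM in the Enshi black liver, 130 in Large White and 297 in the Chinese wild boar. It was 2.30-fold higher in Chinese wild boar than in Large White (2.19 to 2.40) and 3.26-fold lower in Enshi black than in Chinese wild boar (3.10 to 3.43). ABCD3, a peroxisomal importer of branched chains and bile acid precursors, had 55.3, 51.2 and 143 CPM, and was 2.78-fold higher in Chinese wild boar than in Large White (2.59 to 2.99) and 2.58-fold lower in Enshi black than in Chinese wild boar (2.41 to 2.76). ECH1, a dienoyl-CoA isomerase with 33.3, 21.9 and 61.3 CPM, was 2.80-fold higher in Chinese wild boar than in Large White (2.50 to 3.13), and CRAT, the acetyltransferase for short carnitine esters, had 223, 332 and 588 CPM and passed as 2.64-fold lower in Enshi black than in Chinese wild boar (2.55 to 2.73). DECR2, a peroxisomal reductase, had 93.4, 208 and 121 CPM and passed as 2.22-fold lower in Enshi black than in Large White (2.11 to 2.35), a call that was lost with total counts. HSD17B4, the bifunctional enzyme that works between the oxidases and the thiolase, had 371, 232 and 298 CPM and passed nowhere.

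**Figure D4:**
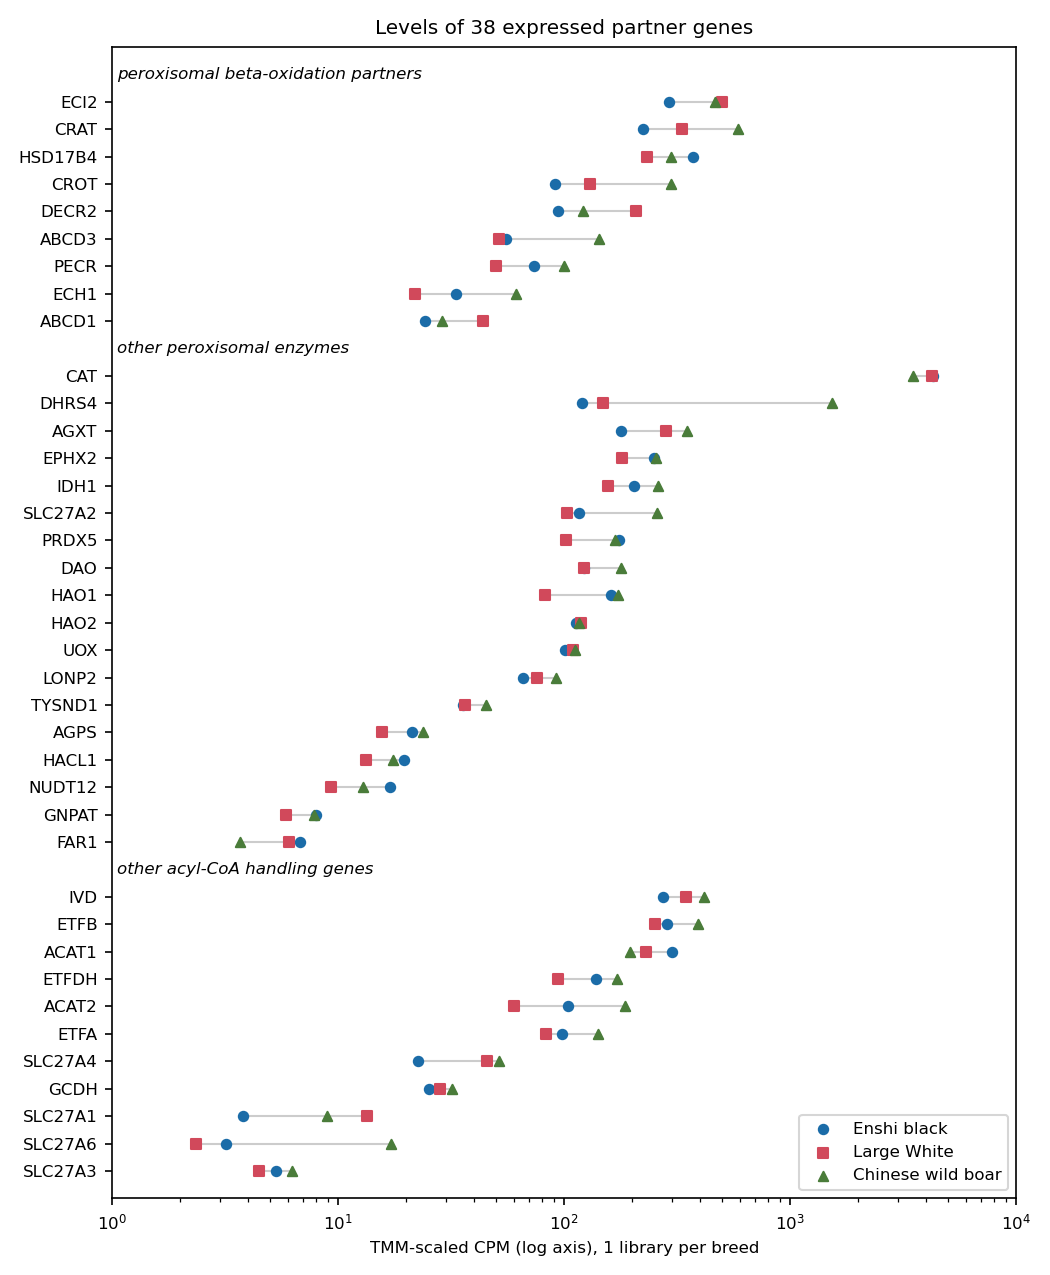
TMM-scaled CPM (log axis) of the 38 expressed genes of 3 partner lists in the 3 libraries; each point is 1 library and the grey line joins the lowest and the highest. Chinese wild boar lies to the right for CROT, ABCD3, SLC27A2 and DHRS4, and CAT and HAO2 are nearly level.

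Of 26 other peroxisomal enzymes, 19 had an ID in the tables and 18 of those were expressed. Of these, 2 passed higher in Chinese wild boar against Large White, 2 lower in Enshi black against Chinese wild boar and none in Enshi black against Large White. The median log2 folds were 0.43, -0.13 and 0.16. DHRS4, a peroxisomal carbonyl and retinal reductase, had 119 CPM in the Enshi black liver, 149 in Large White and 1524 in the Chinese wild boar, and Enshi black was 12.8-fold below Chinese wild boar (12.3 to 13.3). It also passed higher in Chinese wild boar against Large White. DHRS4 has close copies beside it in other mammals, so its level is uncertain. SLC27A2, a very long chain acyl-CoA synthetase of peroxisomes and a fatty acid transporter, had 116, 103 and 257 CPM, 2.48-fold higher in Chinese wild boar than in Large White (2.36 to 2.62). It was also 2.21-fold lower in Enshi black than in Chinese wild boar (2.11 to 2.32), a call that was lost with total counts. Catalase (CAT), which removes the hydrogen peroxide made by the oxidases, was the most counted gene of the list, with 4255, 4249 and 3504 CPM.

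Of 18 other acyl-CoA handling genes, 14 had an ID in the tables and 11 of those were expressed. Chinese wild boar against Large White gave 2 higher, ACAT2, the cytosolic thiolase of sterol synthesis, at 3.11-fold (2.91 to 3.32) and SLC27A6, a fatty acid transporter, at 7.30-fold (lower bound 5.35) with 46 counts in Large White. Enshi black against Large White gave 1 lower, the fatty acid transporter SLC27A1 at 3.52-fold (2.73 to 4.56), and Enshi black against Chinese wild boar 2 lower, SLC27A6 and SLC27A4, at 5.37-fold (4.14 to 7.07) and 2.28-fold (2.05 to 2.55), of which SLC27A4 was lost with total counts. The electron acceptor of the dehydrogenases did not pass in any comparison: ETFA had 97.5, 83.1 and 141 CPM, ETFB 286, 251 and 389, and ETFDH, the enzyme that passes the electrons on, 138, 93.8 and 171. All 3 had Large White lowest and Chinese wild boar highest, as did ACADL and ACAD11. Of 11 peroxisomal membrane and fission proteins, 3 had an ID in the tables, and of these SLC25A17, a cofactor transporter, and MAVS, an antiviral adaptor on mitochondria and peroxisomes, were expressed, and neither passed. HSD17B4, CAT and the ETF genes were picked for their roles after their values were seen.

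The rule for passing holds no spread between animals. With a coefficient of variation of 0.2 put in for that spread, the calls of ACSL1, ACAA1, ACAD11, ACADL and ACSM5 were lost and both ACSL4 calls held, and with 0.4 ACSL4 passed against Large White but not against Chinese wild boar. Of the 16 calls on partner genes, the 4 of DHRS4 and SLC27A6 held at 0.2 and the other 12 were lost. Of the 43 expressed members, 18 overlap another gene in the RefSeq annotation of Sscrofa11.1, a later build than the one used for counting, among them ACAA1 and ACAD11, and their counts are uncertain to that extent. In Enshi black, 47 gene IDs were at 3 counts or fewer although both other libraries held at least 5 CPM. Each other library had 1 such ID, and 0 members were among them.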

How the data were processed

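Total RNA of 3 livers was sequenced as paired-end reads, 1 library per breed, per the labels' protocols. The deposited values are whole-number read counts per Ensembl gene ID, not normalized, per the file headers. Build Sscrofa10.2, HTSeq 0.6.1, TopHat2 2.1.0 and edgeR 3.16.3 appear in the submitters' processing notes. Not given in the sources used here: annotation release, strand setting and treatment of multiply aligned reads. The 5 rows of each table that name no gene stayed out of library sizes. Of all entries, no feature took 18.9% to 22.0% and ambiguous reads 1.89% to 2.49%.

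The 13228 IDs that reached 1 CPM (counts per 1e+06 gene counts) in any library were kept, and TMM factors were computed on them with edgeR 4.0.16 in R 4.3.3. Symbols came from an ID table for 11804 IDs. Median log2 folds used a prior count of 2. Intervals were computed with Python 3.11.15 and scipy 1.17.1, and the passing rule was first tried on simulated counts. Those counts held counting error only, with planted changes above the 2-fold bound. They held no spread between animals, so this trial gives no error rate across animals. No genome or sequence table was used here, so no sequences or coordinates are given, and the planned reading of targeting signals and promoter repeats was not done.

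Members that passed were named with all values, most others with their levels (some are not reported here by name, though the counts and medians include them), and of partner lists up to 4 passing genes per direction. Members, partner lists and marker lists (hepatocyte, Kupffer, stellate and fibroblast, endothelial, cholangiocyte, adipocyte, T cell, kidney tubule) were chosen with earlier results of these data known.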

Additional observations from a re-analysis of the deposited data

How the results depend on the processing

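No member call changed direction under any alternative. With scaling by total counts and with a stricter confidence level, the 7 member calls were kept and none was added. DESeq2 1.42.0 size factors kept them and added ACOT6. With all IDs, or only those reaching 10 CPM, the same calls stood. These filters could not remove a call, since size factors stayed fixed and all 6 members that passed reached 10 CPM. With a near bound of 1.5, 6 members passed higher and 8 lower in Enshi black against Large White. Chinese wild boar against Large White gave 8 and 3, and Enshi black against Chinese wild boar gave 2 and 9. The share of all expressed genes that pass at a bound of 1.5 was not counted. Nothing is therefore read from these counts about the members as a set. With a near bound of 4, or an assumed coefficient of variation of 0.2 or 0.4, 0 passed higher and 0 lower in Chinese wild boar against Large White, and 0 lower in Enshi black against Chinese wild boar; with 0.4, 0 passed higher there too.

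The median log2 fold over members ranged from -0.11 to -0.01, from 0.19 to 0.21 and from -0.29 to -0.14 in these comparisons, over both other scalings, both other filters, a prior count of 0.5 and the mean. Total counts moved the median of all genes to 0.10 in both comparisons of Enshi black. Partner lists were tried under the same settings after the data were seen: of 16 calls, 12 were lost at a near bound of 4, 12 at a coefficient of variation of 0.2, 13 at 0.4, 3 with total counts and 1 at the stricter level.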

Other observations

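ACADVL, the very long chain acyl-CoA dehydrogenase left out by the rule, had 35, 4 and 8 counts in Enshi black, Large White and Chinese wild boar, or 1.62, 0.205 and 0.404 CPM. The other long-chain dehydrogenase, ACADL, had 548 to 1408 counts. APOA1, an abundant liver apolipoprotein in mammals, had 2, 0 and 2 counts under its gene ID.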
